A study of Homo sapiens with 4 samples.

Results

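DDIT3, EIF2AK3, ERN1 and DNAJB9 are genes of the unfolded protein response, and their m6A peaks were described in lung adenocarcinoma cells that are sensitive (A549) or resistant (A549/DDP) to cisplatin. The 4 genes were chosen by name, with earlier results of these data known. Every row of the authors' 2 deposited peak lists that carried one of their symbols was taken. Together they had 7 distinct peaks of 32069 in the A549/DDP list and 5 of 27319 in the A549 list, and they are 4 of 7952 genes with a peak in either list. A distinct peak is a set of exon blocks at one position on one strand, counted once however many transcripts it was listed on. A549 is an established lung adenocarcinoma cell line, and A549/DDP is labelled as its cisplatin-resistant counterpart. The labels name no drug added during culture, no dose and no clone. Each line gave 1 library of RNA pulled down with an m6A antibody and 1 input library, and the study deposited 1 peak list per line.

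N6-methyladenosine (m6A) is a methyl mark within messenger RNA, and in MeRIP-seq RNA fragments bound by an m6A antibody are sequenced beside input fragments. Where the antibody fraction is enriched over the input, a peak is called. The unfolded protein response is set off when misfolded proteins accumulate in the endoplasmic reticulum (ER). Its membrane sensors are PERK (gene EIF2AK3), IRE1 (gene ERN1) and ATF6. PERK phosphorylates the translation factor eIF2, which lowers general protein synthesis and favours translation of ATF4. ATF4 in turn induces CHOP (gene DDIT3), a transcription factor linked to cell death under lasting stress. IRE1 splices the mRNA of XBP1, and among the genes that XBP1 induces is DNAJB9, which encodes the ER cochaperone ERdj4, a partner of the chaperone BiP.

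There was 1 library of each kind per line, so differences between the lines have no replicate check and were not tested. Fold enrichments and p-values are the values in the authors' deposited tables. The lists hold no read counts, so depth is unknown, and an absent peak cannot be told apart from a scarce transcript or a shallow library. Positions are on hg19 and count from 1. A peak list shows only that a gene carries a peak, not its level: among epithelial markers KRT7, KRT8 and KRT18 had peaks in both lists, CDH1 in A549 alone, and EPCAM and KRT19 had no listed peak. Of the lung markers NKX2-1, SFTPB, SFTPC, SFTPA1 and NAPSA 0 of 5 had a listed peak, and of 7 markers of other cell types CD68 and COL1A1 had peaks in both lists.

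Of the 4 genes, DDIT3 had peaks in both lines. EIF2AK3 and DNAJB9 had peaks in A549/DDP alone, and ERN1 had a peak in A549 alone. Over all 7952 genes with a peak, 69.5% were listed in both lines, 18.9% in A549/DDP alone and 11.6% in A549 alone. With 4 genes the counts of 1, 2 and 1 are a description. Every DDIT3 peak of one list overlapped a DDIT3 peak of the other (1 or more exonic bases in common, strands equal), which made 4 of the 7 A549/DDP peaks and 4 of the 5 A549 peaks overlapping. Over the whole lists 67.2% of A549/DDP peaks and 78% of A549 peaks did so. No peak of the 4 genes touched a 5′ UTR (0 of 7 and 0 of 5). Over the whole lists 13.6% of A549/DDP peaks and 8.42% of A549 peaks did. With so few peaks, 0 is close to these shares and is no trait of the 4 genes.

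The effector gene DDIT3 carried 1 merged region of m6A enrichment at its stop codon in each line. The region ran over 582 bases in A549/DDP (chr12:57910371-57910952, minus strand) and over 442 bases in A549 (chr12:57910405-57910846), all of which lay inside the A549/DDP region. In each list it was made of 4 overlapping peaks, 1 for each of the same 4 annotated transcripts. All were single exon blocks that touched the coding sequence, and all except one A549 peak also touched the 3′ UTR.

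On transcript ENST00000346473.3 (906 bases) the fold of the peak was 7.25 in A549/DDP (the authors' p = 5.01e-36) and 5.92 in A549 (the authors' p = 3.98e-09). It spanned 556 and 439 bases, or 61.4% and 48.5% of the transcript. On ENST00000551116.1 the folds were 7.04 and 5.31 (the authors' p = 5.01e-36 and 2.63e-09), over 564 and 416 bases. On ENST00000547303.1 they were 6.55 and 5.31 (the authors' p = 1.58e-35 and 2.29e-09), over 582 and 408 bases. Thus the A549/DDP list gave DDIT3 a longer peak, a higher fold and a smaller p than the A549 list on each of these transcripts.

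The fourth transcript, ENST00000552740.1, had the shortest peak and the lowest fold of the 4 in each list. Its peak spanned 357 bases with a fold of 5.60 in A549/DDP (the authors' p = 2.51e-24), and 149 bases with a fold of 3.18 in A549 (the authors' p = 3.09e-05), where it was annotated as coding alone. On the other 3 transcripts the peaks reached 216 to 221 bases farther toward the 3′ end in A549/DDP, and 250 to 276 bases farther in A549. At the 5′ side the ends of the 4 peaks differed by at most 21 bases in A549/DDP and 17 bases in A549. The order of the transcripts by fold therefore had the same first and last members in both lists, while the middle pair had equal folds in A549.

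On each transcript the whole A549 peak lay inside the A549/DDP peak. The A549/DDP peak reached farther toward the 5′ end by 88 to 119 bases and farther toward the 3′ end by 29 to 89 bases. The A549 peak made up 79.0% of the A549/DDP peak on ENST00000346473.3 and 41.7% on ENST00000552740.1. The 4 transcripts share most of these bases, so their peaks are not independent measurements.

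**Figure D1:**
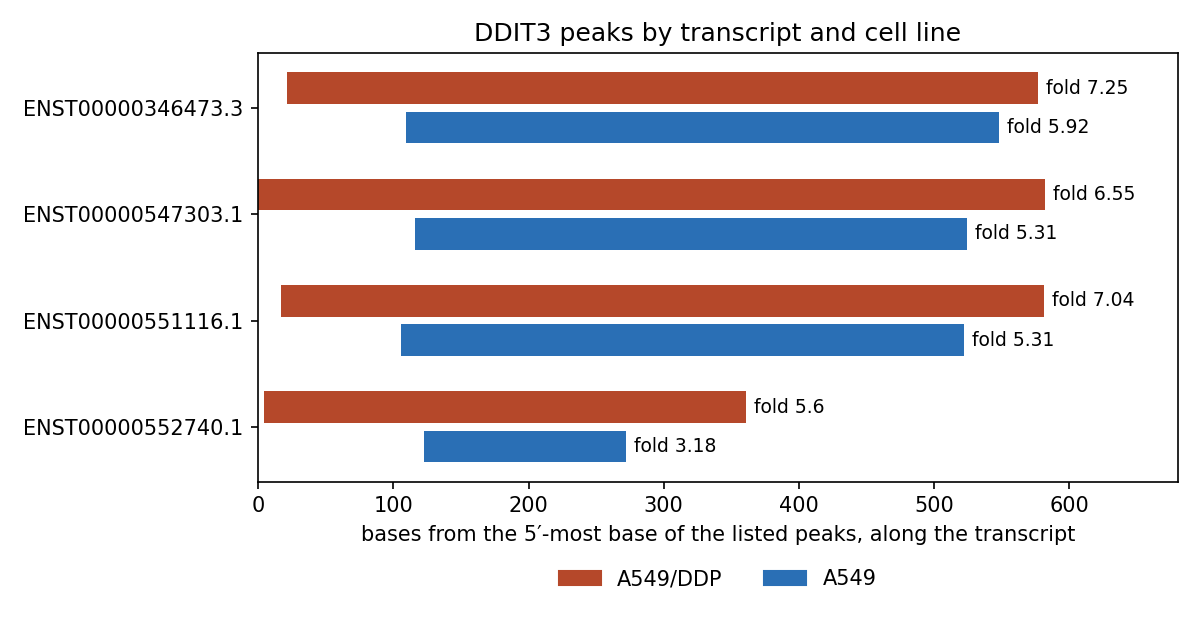
Each bar is the listed peak of DDIT3 on one annotated transcript in A549/DDP (red) or A549 (blue), with the authors' fold beside it. The x axis is the distance in bases from the 5′-most base of any DDIT3 peak, in the direction of transcription. Every A549 bar lies within the A549/DDP bar of the same transcript, and both bars of ENST00000552740.1 end before those of the other transcripts.

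Within their own lists the DDIT3 peaks stood at different ranks. In A549/DDP 13.7% of all distinct peaks had a smaller p than the strongest DDIT3 peaks, and 19.7% had a higher fold than the 7.25 of ENST00000346473.3. In A549 43.4% had a smaller p than its strongest peak, and 27.3% had a higher fold than 5.92. The lengths of its peaks ranked high in both lists for the 3 longer ones: 88.8% to 90.1% of A549/DDP peaks and 79.2% to 81.7% of A549 peaks were shorter. Ranks depend on what else each list holds and are no measure of a change between the lines.

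Among the 5524 genes with peaks in both lists, the bases under peaks of both lines made up a median of 58.1% of the bases under a peak of either (quartiles 37.5 and 76.5%). For DDIT3 this share was 75.9%, and 74.4% of these genes had a lower one. Among the 2082 genes with 1 merged region in each list the median was 72.0%, and 55.5% of them had a lower share than DDIT3. The covered length in A549/DDP over that in A549 was 1.32 for DDIT3, against a median of 1.09 over the genes in both lists and 1 over those with 1 region in each list. In 44.9% of the latter the A549 peaks lay wholly inside the A549/DDP peaks, as in DDIT3.

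**Figure D2:**
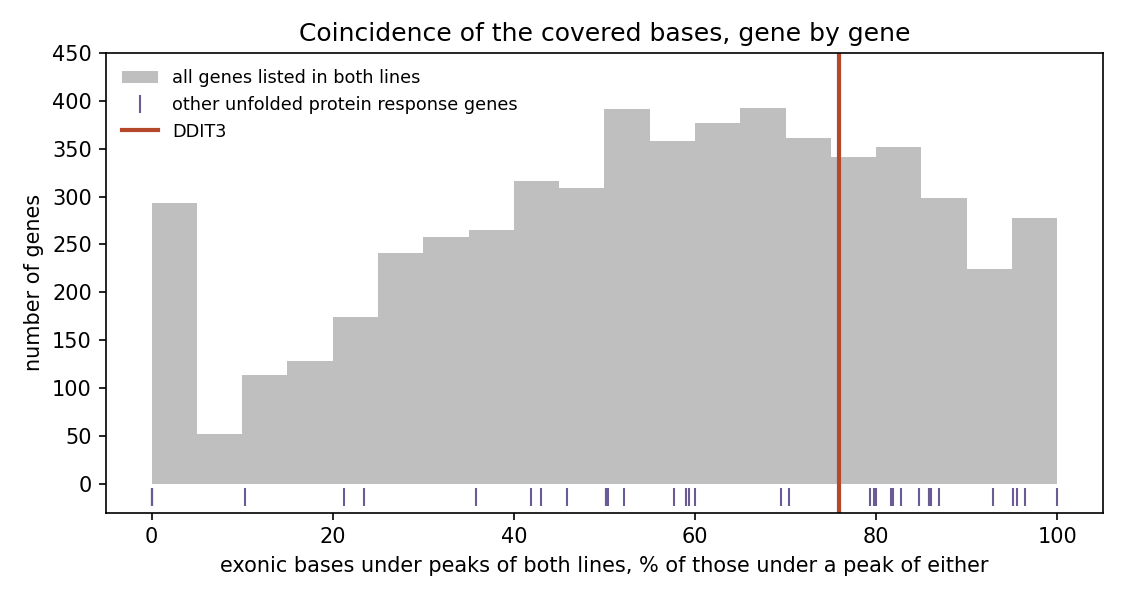
Histogram of the share of exonic bases under peaks of both lines, in % of those under a peak of either line, for the 5524 genes listed in both lines. The red line marks DDIT3 at 75.9%, in the upper part of the distribution, and the ticks below the axis mark the other 36 unfolded protein response genes listed in both lines, whose values run from 0 to 100%.

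DDIT3 lies tail to tail with MARS, the methionyl-tRNA synthetase gene, which is read from the opposite strand. Peaks of MARS at its stop codon or 3′ UTR reached as far as position 57910438 of chromosome 12 in both lists and covered 68 of the 582 DDIT3 bases in A549/DDP (11.7%) and 34 of the 442 in A549 (7.69%). The 3 MARS peaks of A549/DDP had folds between 2.13 and 2.45, and the 3 of A549 between 2.94 and 3.30. The libraries were made with a stranded kit, but whether strand was used in peak calling is not given in the sources used here, so peaks in the overlapping bases cannot be assigned to one gene with certainty. The DDIT3 peak on ENST00000552740.1 covered 0 bases under a MARS peak in either list.

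EIF2AK3, the gene of the sensor kinase PERK, had 2 distinct coding peaks in A549/DDP and none in A549. They were listed on 3 transcripts and overlapped almost completely, at chr2:88874631-88874780 on ENST00000419748.1 and at chr2:88874635-88874785 on ENST00000303236.3 and ENST00000415570.1 (minus strand). The fold was 10.6 and the p 5.01e-05 on all 3. The peak of 151 bases covered 3.25% of ENST00000303236.3, a transcript of 4646 bases, so that it marked one small coding stretch rather than the stop codon region seen in DDIT3. In the A549/DDP list 11.3% of peaks had a higher fold, but 72.2% had a smaller p.

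DNAJB9, the gene of the cochaperone ERdj4, had 1 peak in A549/DDP and none in A549. It lay across the stop codon (chr7:108213683-108213833, plus strand) and covered 151 bases, or 5.56% of the 2715 bases of ENST00000249356.3. Its fold of 15.2 was the highest of the 4 genes, with only 5.28% of the peaks of the list above it. Its p of 0.000324 was the largest of the 4 genes, with 83.3% of the list's peaks below it.

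ERN1, the gene of the sensor IRE1, had 1 peak in A549 and none in A549/DDP. The peak was listed on 1 transcript alone, ENST00000606895.1, and labelled as its 3′ UTR (chr17:62206621-62206801, minus strand). The label holds for that transcript, and where the peak lies on other transcripts of ERN1 was not examined. It had a fold of 6.33 and an authors' p of 0.000282 over 181 bases. It covered 8.75% of this transcript of 2068 bases. In the A549 list 24.8% of peaks had a higher fold and 81.6% a smaller p. Within 5 kb of the EIF2AK3, ERN1 and DNAJB9 peaks there were 0 peaks of any other gene on either strand in either list. No peak under another symbol thus stood in for them at these positions, and the rest of these genes was not searched.

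The peaks of EIF2AK3, DNAJB9 and ERN1 had values that many other peaks of their list shared. The pair of values of DNAJB9 (fold 15.2, authors' p of 0.000324) occurred at 160 distinct peaks of 109 genes in the A549/DDP list, and no pair of values was more frequent there. Among the 198 peaks with that p, 0 had a higher fold than DNAJB9. The folds of EIF2AK3 and ERN1 equalled the median of the 71 and 93 peaks with their p. The pair of EIF2AK3 occurred at 38 peaks of 26 genes and that of ERN1 at 42 peaks of 36 genes in A549, one of them a peak of the third sensor gene, ATF6. Each of the 8 DDIT3 peaks had a pair of values found nowhere else in its list. This is no trait of DDIT3, since most pairs of either list were found once. Ordered by frequency, the pairs found once began at rank 3959 of 20514 in A549/DDP and at rank 3340 of 17685 in A549. The lists hold no read counts, so how many reads stand behind the shared values is unknown.

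**Figure D3:**
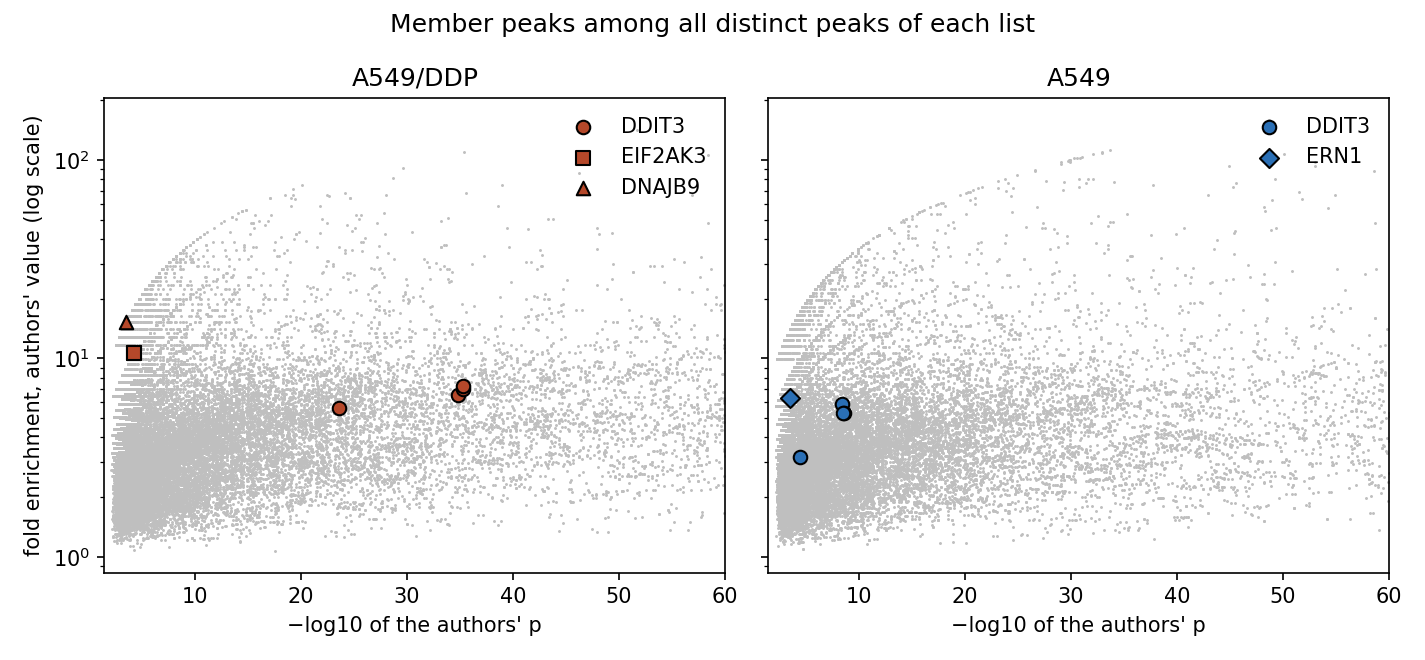
Authors' fold (log scale) against −log10 of the authors' p for the distinct peaks of A549/DDP (left) and A549 (right). Grey points are all peaks with a −log10 p of up to 60, and marked points are the peaks of DDIT3, EIF2AK3, DNAJB9 and ERN1. DNAJB9 lies at the upper left edge of the cloud and EIF2AK3 and ERN1 also lie at the left, at large p, while the DDIT3 peaks lie at smaller p, farther to the right in A549/DDP than in A549.

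The share of genes also listed in the other line was lower among genes with peaks as weak as these than among genes as strong as DDIT3. The A549/DDP genes of the tenth of strength that held both EIF2AK3 and DNAJB9 by their smallest p numbered 702, and 50.6% of them had a peak in A549. Of the 642 A549 genes in the tenth that held ERN1, 68.4% had a peak in A549/DDP. For DDIT3 the shares were 97.4% of 703 genes in A549/DDP and 87.4% of 645 genes in A549. Of the genes listed in A549/DDP alone, 79.6% had no peak with a p below the list median of 5.13e-08, and 78.0% of those in A549 alone had none below 9.12e-08. EIF2AK3, DNAJB9 and ERN1 belonged to these. For comparison, 54.6% of all A549 genes had a peak with a p below 2.29e-09, the smallest of DDIT3. This limit is stricter than the A549 median, so at least that share had a peak below the median. The share of all A549 genes with none was therefore lower than the 78.0% of those in A549 alone. The share over all A549/DDP genes is not given here. When the 13659 strongest peaks by p were taken from each list, DDIT3 kept 4 peaks in A549/DDP and 3 in A549, and the other 3 genes had 0 in either. The 0 restates their p-values, because 13659 peaks reach no farther than the median p of either list.

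The genes whose peaks were most like those of a member were sought among genes with the same number of merged regions and the same transcript regions in each list, by the distance between their highest folds on the log2 scale. For DDIT3, over 2 lists and 647 candidates, these were CYFIP2 (folds 7.20 and 6.06 in A549/DDP and A549), PAGR1 (7.21 and 5.65) and TMEM175 (6.87 and 5.99). For the other members only 1 list could be used. FOXL1, PTAR1 and URB2 had the fold of EIF2AK3 (distance 0, among 365 candidates, with 4 at that distance), and LYSMD3 had that of DNAJB9 (distance 0, among 178), followed by DBR1 and FAM181B at a fold of 14.1. For ERN1 they were SH3RF2 (6.30), MROH6 (6.40) and CHIC1 (6.20) among 426 candidates.

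The wider pathway was taken as a list of 58 genes that includes the 4 members. A peak was listed for 44 of them, in both lines for 37 (84.1%), in A549/DDP alone for 5 (11.4%) and in A549 alone for 2 (4.55%). Over all genes with a peak these shares were 69.5%, 18.9% and 11.6%. Without the 4 members these counts were 36, 3 and 1 of 40. For the 37 genes in both lists, the bases under peaks of both lines made up a median of 69.5% of those under a peak of either, against 58.1% over all genes. Of the 7 pathway genes listed in one line, 3 were members, but members were chosen with earlier results of these data known. Of these 7, EIF2AK4 alone had a peak whose p was below the median of its list. A 3′ UTR was touched in both lines in 35 of the 37 genes (94.6%), and in 78.2% of all 5524 genes in both lists. For genes of the list in both lines, unless said otherwise, the folds given are the highest among peaks with a p below the list median, in A549/DDP and then in A549, and can belong to peaks at different sites.

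**Figure D4:**
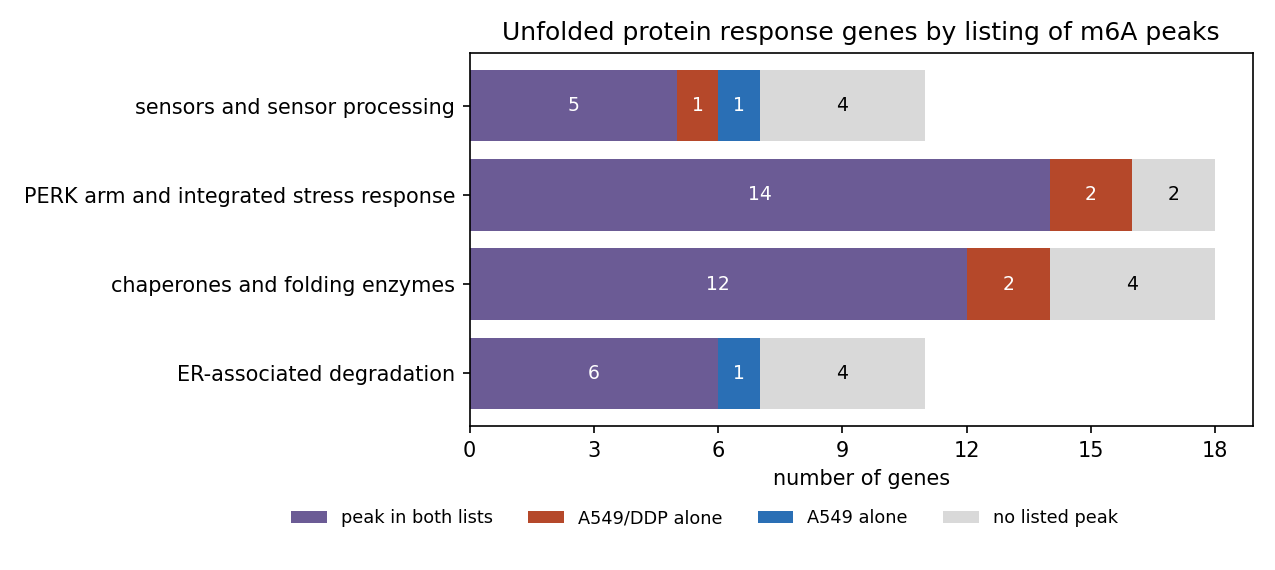
Number of unfolded protein response genes in each group of roles with a peak in both lists (purple), in A549/DDP alone (red), in A549 alone (blue) or with no listed peak (grey). Genes listed in both lines are the largest class in each group of roles, with 5, 14, 12 and 6 genes from top to bottom.

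Among the sensors and the genes that process them, 7 of 11 had a peak, 5 in both lines. The sensor gene ATF6 had a stop codon peak with folds of 3.36 in A549/DDP and 3.74 in A549 (chr1:161928434-161928823 and chr1:161928434-161928763). MBTPS1, the protease that cleaves ATF6 in the Golgi, had a 3′ UTR peak with folds of 4.19 and 4.78 (chr16:84087431-84087909 in A549/DDP). TRAF2, an adaptor that IRE1 recruits, had folds of 3.17 and 6.04 at its stop codon. RTCB, the ligase that joins the XBP1 exons, had these highest folds at different sites, 1.91 in its coding sequence in A549/DDP (chr22:32792196-32795597) and 2.61 in its 3′ UTR in A549 (chr22:32783677-32783944). XBP1 itself, named after its values were seen, had peaks in both lists that were weaker than the median p (highest folds 1.92 and 2.64). ERN2, ATF6B, MBTPS2 and MAP3K5 had no listed peak. The stop codon peaks of ATF6 had an authors' p of 3.16e-22 in A549/DDP and 2.51e-14 in A549. Its other A549 peak, in the 3′ UTR, had the same fold and p as the ERN1 peak (6.33 and 0.000282).

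In the PERK arm and the integrated stress response, 16 of 18 genes had a peak, 14 in both lines. CEBPB, which encodes a dimer partner of CHOP, had a peak that spanned both UTRs and the coding sequence, with folds of 58.8 in A549/DDP and 35.8 in A549 (chr20:48807406-48809212 and chr20:48807494-48809212). BBC3, the gene of the proapoptotic protein PUMA, had folds of 25.2 and 7.60, and TNFRSF10B, a death receptor gene that CHOP induces, had 8.68 and 9.40 in its 3′ UTR. EIF2AK2, the gene of the eIF2 kinase PKR, had 11.7 and 27.0 in its 3′ UTR (chr2:37333816-37334176 in A549/DDP).

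EIF2AK4, the gene of the eIF2 kinase GCN2, had 6 peaks in A549/DDP alone, the highest with a fold of 3.03 in its coding sequence (authors' p of 3.98e-11, chr15:40241444-40253997). BCL2L11, the gene of the proapoptotic protein BIM, was named after its values were seen. It had 4 weak 5′ UTR peaks of 1 merged region in A549/DDP alone (folds 7.62 to 12.9, smallest p 0.00132). ATF4, the direct activator of DDIT3, was named after its values were seen. It had folds of 4.55 and 2.97 at its stop codon, with p listed as 0 in A549/DDP and as 1e-210 in A549, and 92.9% of its covered bases were common to both lists. ATF3 and ASNS had no listed peak. The PERK gene was listed in one line, with peaks weaker than the median p, while ATF4 and DDIT3, which act after it, were listed in both. So were the sensor gene ATF6, the kinase gene EIF2AK2 and 69.5% of all genes, while BCL2L11 was listed in one. The contrast is therefore no trait of the order of the pathway.

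Of the chaperone and folding genes 14 of 18 had a peak, 12 in both lines and 2, DNAJB9 and CRELD2, in A549/DDP alone. HSP90B1, the gene of the ER chaperone GRP94, had folds of 19.4 and 4.48 across its 5′ UTR and coding sequence (chr12:104324172-104326693 and chr12:104324201-104327796). WFS1, which encodes an ER membrane protein, had a 3′ UTR peak at the same position in both lists (chr4:6304783-6304992, folds 10.6 and 7.23). CALR, the calreticulin gene, had folds of 7.06 and 4.60 across its stop codon, and a weaker A549 peak in its coding sequence (authors' p of 0.00055) had a fold of 13.2. The disulfide isomerase gene PDIA4 had a fold of 4.67 across its stop codon in A549/DDP (chr7:148700573-148702282), where the A549 peak had 3.69. Its highest A549 fold, 4.74, lay in the 3′ UTR (chr7:148700154-148700393), where the A549/DDP peak had 4.58. HSPA5, the gene of BiP, was named after its values were seen and had folds of 2.55 and 2.13, with 96.4% of its covered bases common to both lists. CRELD2, also named after its values were seen, had 4 peaks of 1 merged region with folds of 1.51 to 1.94. HYOU1, ERO1B, DNAJC10 and MANF had no listed peak.

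Of the genes of ER-associated degradation, which returns misfolded proteins to the cytosol for breakdown, 7 of 11 had a peak, 6 in both lines. The lectin gene OS9 (folds 6.19 and 3.74), EDEM2 (5.90 and 4.17), DERL2 (6.85 and 5.76) and DERL1 (2.75 and 7.32) were listed in both lines. The DERL2 peak lay at the same position in both lists (chr17:5377772-5378066, 3′ UTR). SYVN1, the gene of the ubiquitin ligase HRD1, was named after its values were seen. It had 4 weak 3′ UTR peaks of 1 merged region in A549 alone (folds 3.72 to 4.13, smallest p 3.47e-06). DERL3, EDEM1, EDEM3 and ERLEC1 had no listed peak.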

How the data were processed

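MeRIP-seq libraries of A549 and A549/DDP (4 libraries, 1 of each kind per line) were analysed from the authors' 2 deposited peak lists. HISAT2 and the build hg19 are named in the submitters' processing notes. No caller, threshold or annotation release is given in the sources used here. Each list was taken as pull-down over input of its line, which the files do not state. The fold enrichment is a linear ratio, deposited by the authors for each peak. The p-values are also as deposited, and the sources do not say if they were adjusted.

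Rows that shared position, strand and blocks became 1 distinct peak (Python 3.11.15, pandas 2.3.3, numpy 2.4.6). Peaks overlapped with at least 1 exonic base in common on the same strand. Peaks of a list that overlapped were merged into regions. Symbols were brought to current names through the RefSeq table of GRCh38.p14 (7829 of 7957 matched), without its coordinates. Overlap code was tested on simulated data. The members and lists were chosen with earlier results of these data known. All members were named. Per group of roles, up to 4 pathway genes in each class were named, by highest fold among peaks with a p below the list median (for both lines, the lower fold). XBP1, ATF4, HSPA5, BCL2L11, CRELD2 and SYVN1 fell outside that rule and were named after their values were seen. No sequence under a peak is printed, since no genome of the build was used here.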

Additional observations from a re-analysis of the deposited data

How the results depend on the processing

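DDIT3 was the 1 member listed in both lines at a fold of at least 2, at a fold of at least 5 and among the 13659 strongest peaks of each list. These limits only remove peaks, so a member with no peak in one list could not come to be listed in both. After overlapping peaks were merged, the members had 3 regions in A549/DDP and 2 in A549, of which 1 and 1 overlapped the other list. Among the strongest peaks they had 4 and 3 distinct peaks, all of DDIT3. Counting rows of peak and transcript, asking for 50% of the shorter peak, using genomic spans or ignoring strand moved no count of the members by more than 1.5 times. For the pathway list, a fold of at least 5 left 14 genes in both lines, 9 in A549/DDP alone and 8 in A549 alone. Over all genes the counts at that fold were 2458, 1557 and 1014. The pathway list thus had no larger share in both lines than all genes at that fold. Under that limit, peaks of lower fold in the other list are not counted. A fold of at least 2 left 34 pathway genes in both lines, 5 in A549/DDP alone and 4 in A549 alone. Over all genes these counts were 5166, 1563 and 956. The strongest peaks gave 27 pathway genes in both lines and 3 in A549/DDP alone, against 3030 and 765 over all genes. Under both of these limits the pathway list had a larger share in both lines than all genes, a difference that was not tested. Pathway genes in one line thus went from 5 in A549/DDP and 2 in A549 to 3 and 3 among the strongest peaks, while over all genes such counts went from 1502 and 926 to 765 and 885. With 1 library of each kind per line, no replicate could be left out and no paired analysis across the lines was possible. The lists give no depth.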
